A study of Mus musculus with 12 samples.

Results

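Messenger RNA levels in mouse embryonic stem cells carrying a hairpin against Suv39h1 (shSuv39h1, 2 libraries) were compared with those in cells carrying the hairpin labelled shNC (2 libraries), read here as the control hairpin. A gene was described when it reached at least 1 FPKM, a fragment count scaled by transcript length and library size, in at least 2 of these 4 libraries. This held for 12640 of the 23354 genes listed, of which 86 reached it through the shSuv39h1 libraries only and 66 through the shNC libraries only. Such a gene had to differ between the groups, so it is named as one where it is described. The 2 groups belong to a series of 12 libraries in 6 groups of 2, whose other groups carry a hairpin against Suv39h2 (shSuv39h2) or a transgenic histone H3.1, as wild type (H3.1WT), K9M or K36M. All groups are J1 cells, a male embryonic stem cell line, grown in serum with leukemia inhibitory factor on inactivated mouse embryonic fibroblasts, so that each library can hold feeder RNA. The hairpins' sequences and vector, the number of clones and the time of harvest are not given in the labels used. No label tells whether the 2 replicates of a group came from different cultures, so the p-values cover a spread that may be only technical.

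Suv39h1 and its paralog Suv39h2 are methyltransferases that add methyl groups to lysine 9 of histone H3. Their trimethyl mark, H3K9me3, is densest over pericentromeric satellite repeats, where it is bound by HP1 proteins and helps keep repeats and some genes silent. In embryonic stem cells other enzymes, among them Setdb1 with its cofactor Trim28 and the Ehmt1-Ehmt2 complex, also methylate H3K9 at genes and retroelements.

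Between 12354 and 12518 genes per library reached 1 FPKM, and 11921 of the described genes did so in all 4 libraries. From the steps between low values, 1 FPKM of a 2 kb transcript was estimated to stand for 42.5 to 55.0 fragments in these libraries. Each library's scale was chosen so that these steps came out whole as often as possible. For shorter transcripts it stands for fewer. The SD of the log2 difference between replicates over genes was 0.227 in shSuv39h1 and 0.345 in shNC. All 32 embryonic stem cell markers were described, and Pou5f1 stood at 777 and 823 FPKM under the Suv39h1 hairpin and 693 and 748 in shNC. Of 38 fibroblast feeder markers 36 were described. The summed level of all 38 was 1868 and 1241 FPKM in shSuv39h1 (replicates 1 and 2) against 1790 and 2376 in shNC. The feeder sum therefore differed between replicates as well as between groups, and it is given again beside the gene groups it moves with. No sequencing date or batch is given in the labels.

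The targeted gene was lower in both shSuv39h1 libraries, with a remaining level of 62.2% of control. Suv39h1 (GRCm38 chromosome X, 8061171 to 8074760) stood at 4.91 and 5.10 FPKM (shSuv39h1 replicates 1 and 2) against 8.58 and 7.52 (shNC replicates 1 and 2), so the groups did not overlap. Pairs of values are given in this order throughout. The difference was −0.59 on the log2(FPKM + 1) scale (SE 0.105) and did not pass the test, a limma fit over all 12 libraries adjusted by the Benjamini-Hochberg method (adjusted p = 0.0877). Over the alternative settings its adjusted p lay between 0.0554 and 0.559. Its exons overlap Gm14820 on the opposite strand, and those of Suv39h2 overlap Dclre1c and Gm13184 there, whose reads cannot be told apart without strand. Suv39h2, the paralog, stood at 5.18 and 4.86 FPKM against 4.797 and 4.782 (adjusted p = 0.884). In the shSuv39h2 libraries Suv39h1 stood at 10.5 and 9.74 FPKM and in H3.1WT at 10.3 and 12.2, so the shSuv39h1 libraries held the lowest levels of these 4 groups.

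**Figure D1:**
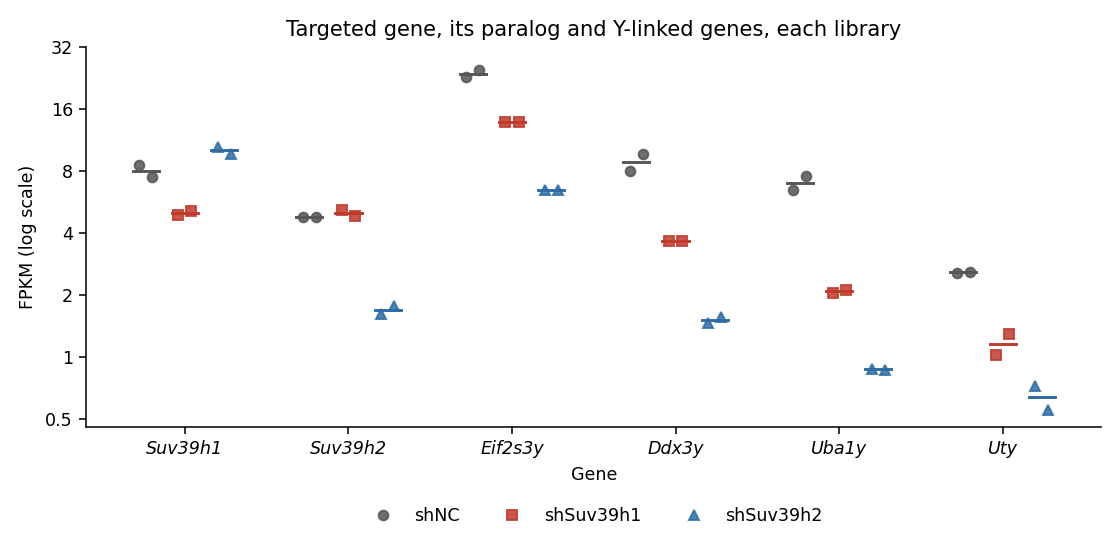
FPKM (log scale) of Suv39h1, Suv39h2 and the 4 described Y-linked genes in each library of shNC, shSuv39h1 and shSuv39h2, with a bar at each group mean. Suv39h1 is lowest in shSuv39h1 and Suv39h2 in shSuv39h2, while the Y-linked genes are highest in shNC, lower in shSuv39h1 and lowest in shSuv39h2.

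Few transcripts passed the test, and the changes were small. Of the 12640 described genes 19 passed at an adjusted p under 0.05 (0.150%), of which 11 rose (0.0870%) and 8 fell (0.0633%), with absolute log2 fold changes from 0.46 to 1.49. At an unadjusted p under 0.05, 7.86% of described genes were higher and 2.75% lower. Both shSuv39h1 libraries were above both shNC libraries for 3408 genes (27.0%) and below them for 1561 (12.3%). These shares are the background for the counts of list members below, both without overlap and at an unadjusted p under 0.05. The median log2 fold change was 0.05 and the SD over genes 0.213, and 26 genes differed by at least 1. The split of rising to falling genes depended on scaling, with 8 rising and 11 falling after quantile normalization and 5 and 9 after median-of-ratios scaling. The count rested on single libraries. Without shSuv39h1 replicate 1 no gene passed in limma, with 905 at an unadjusted p under 0.05, and without shSuv39h1 replicate 2 or shNC replicate 1 the count was 2 or 3. Without shNC replicate 2, 18 passed, of which 6 were among the 19. An exact permutation test of 2 against 2 libraries could not go below 0.333, so each call leans on the spread shared over the 12 libraries.

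**Figure D2:**
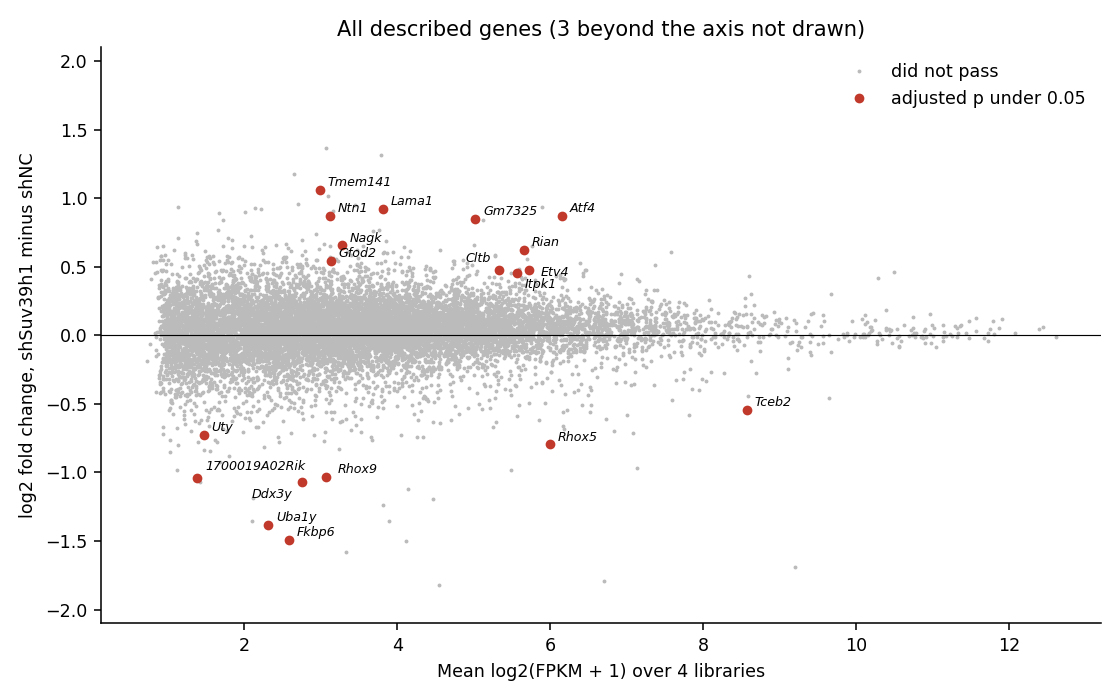
log2 fold change (shSuv39h1 minus shNC) against the mean log2(FPKM + 1) over the 4 libraries for the described genes, with the 19 that passed in red and named. Most genes lie close to 0, the falling genes reach −1.49 at Fkbp6 and the rising ones 1.06 at Tmem141, and 3 small noncoding RNA genes (Snora44, Rmrp and Snora16a) that did not pass lie beyond the axis.

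The falling genes included 3 of the 4 described Y-linked genes. Uba1y, the Y copy of the gene for the ubiquitin-activating enzyme E1 (chromosome Y, 818649 to 844224), stood at 2.04 and 2.12 FPKM against 6.48 and 7.59. It fell by 1.38 on the log2 scale (SE 0.10, adjusted p = 0.00175), to 29.5% of the control mean, and its exons overlap Gm28588 on the opposite strand. Ddx3y, a DEAD-box RNA helicase (chromosome Y, 1260771 to 1286629), stood at 3.67 in both libraries against 8.003 and 9.69, and fell by 1.07 (adjusted p = 0.0051). Uty, a Y-linked relative of the H3K27 demethylase Kdm6a (chromosome Y, 1096861 to 1245759), stood at 1.02 and 1.29 against 2.56 and 2.58 and fell by 0.73 (adjusted p = 0.0451). Eif2s3y, a subunit of the translation initiation factor eIF2, stood at 13.8 in both libraries against 22.9 and 24.7, with a log2 fold change of −0.74 that did not pass (adjusted p = 0.0608). For each of the 4 genes both shSuv39h1 libraries were below both shNC libraries, and the H3.1WT means (7.76, 8.47, 2.67 and 24.5 FPKM in the same order of Uba1y, Ddx3y, Uty and Eif2s3y) lay near those of shNC. The other Y-linked genes of the list of 8 did not reach the level needed to be described. Summed over all 8 listed genes, described or not, the Y-linked level was 20.9 and 21.5 FPKM in shSuv39h1, 41.0 and 45.8 in shNC and 9.68 and 9.65 in shSuv39h2. In bulk RNA, fewer cells that express a gene and less RNA per cell cannot be told apart. With mean feeder marker level as a covariate the median over the 4 genes was −0.93, against −0.91 without it. The X-linked counterparts of these genes are close in sequence, and how the authors' counting split reads between the pairs was not stated.

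Fkbp6 had the largest fall among the genes that passed. It encodes a co-chaperone needed for meiosis and for piRNA production in male germ cells (chromosome 5, 135291704 to 135350044), and stood at 2.38 and 2.80 FPKM against 8.70 and 9.48. The 3.51-fold lower mean was a log2 fold change of −1.49 (SE 0.12, adjusted p = 0.00247). It was the only member that passed, in either direction, among 30 described genes of a list of germline genes known to be silenced by promoter DNA methylation. Of these 30, 10 were lower and 9 higher without overlap (27.0% higher and 12.3% lower over all described genes). The median log2 fold change was 0.06, and −0.04 without shNC replicate 2 and −0.10 with the feeder covariate, so it had no stable sign. Unadjusted p was under 0.05 for 7 lower and 4 higher members. The lower ones included Rpl39l, a testis-type ribosomal protein gene, at 8.04 and 8.30 FPKM against 17.9 and 23.6 (adjusted p = 0.0885). Hormad1, a meiotic chromosome axis protein, stood at 4.65 and 4.39 against 7.24 and 7.61 (adjusted p = 0.101), and Mael, a piRNA pathway protein named after its values were seen, at 6.59 and 6.34 against 9.41 and 7.51 (adjusted p = 0.489). On the other side Tex11, an X-linked gene of meiotic recombination, stood at 6.199 and 6.61 against 3.54 and 3.98 FPKM (adjusted p = 0.145). The list thus held members at both ends of its range, from −1.49 to 0.64. A further gene that fell, 1700019A02Rik (chromosome 1, 53158577 to 53187636), was named after its values were seen. It stood at 0.807 and 0.833 FPKM against 2.46 and 3.05 (log2 fold change −1.04, adjusted p = 0.0238). It was described through the shNC libraries only, so its difference is partly set by the level filter, and the other 7 falling genes reached 1 FPKM in the shSuv39h1 libraries as well.

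Promoters of methylation-silenced germline genes often carry the E-box CACGTG, which is its own reverse complement. The 250 bases before the transcript start of Fkbp6, Hormad1 and Mael are shown from RefSeq on GRCm38.p6, 5′ to 3′ on the strand of the gene, because these members were lower in both shSuv39h1 libraries and carry that motif, in capitals.
Fkbp6 (chr5:135350045-135350294, minus strand): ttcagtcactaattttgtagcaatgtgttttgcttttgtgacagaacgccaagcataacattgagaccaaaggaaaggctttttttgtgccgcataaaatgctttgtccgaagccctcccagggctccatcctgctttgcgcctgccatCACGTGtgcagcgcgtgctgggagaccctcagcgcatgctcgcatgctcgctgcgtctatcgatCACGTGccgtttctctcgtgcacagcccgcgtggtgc
Hormad1 (chr3:95559427-95559676, plus strand): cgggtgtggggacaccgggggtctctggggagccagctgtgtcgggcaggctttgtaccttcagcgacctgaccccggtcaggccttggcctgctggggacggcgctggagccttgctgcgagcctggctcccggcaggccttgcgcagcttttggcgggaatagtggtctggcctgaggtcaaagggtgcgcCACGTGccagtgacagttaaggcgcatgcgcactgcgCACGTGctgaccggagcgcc
Mael (chr1:166238745-166238994, minus strand): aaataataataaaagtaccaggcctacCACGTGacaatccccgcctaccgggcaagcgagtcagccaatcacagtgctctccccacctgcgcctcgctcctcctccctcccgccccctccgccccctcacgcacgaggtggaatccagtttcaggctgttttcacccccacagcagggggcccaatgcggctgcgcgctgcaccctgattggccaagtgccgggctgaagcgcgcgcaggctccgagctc
The Fkbp6 and Hormad1 windows hold the motif at 2 places each and the Mael window at 1. Of 26 list members with a window 10 held it (38.5%), against 8.71% of the 9890 described genes with a window. Among the 10 holders 5 were lower and 1 was higher without overlap, and among the 16 others 5 were lower and 4 higher. Over all described genes the shares were 12.3% lower and 27.0% higher. The E2F core TCCCGC, searched on both strands, was in 38.5% of the list's windows and 31.2% of all windows. A match describes letters in these windows and not a bound site.

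Of the Rhox genes, an X-linked cluster of homeobox genes expressed in gonads and placenta, 2 passed, both lower. Rhox5 (chromosome X, 37804842 to 37808876) stood at 44.7 and 50.6 FPKM against 84.1 and 82.6 and fell by 0.80 on the log2 scale (adjusted p = 0.0351). Rhox9 (chromosome X, 37899097 to 37901770) stood at 4.71 and 5.03 against 10.9 and 11.1 and fell by 1.031 (adjusted p = 0.0350). Rhox1 did not pass, at 2.38 and 2.87 FPKM against 5.73 and 5.01 (adjusted p = 0.0885). Of the other described members, named after their values were seen, Rhox6 stood at 6.05 and 6.06 against 9.96 and 13.3 (adjusted p = 0.172). Rhox10 went the other way, at 8.47 and 7.67 FPKM against 3.48 and 3.86 (log2 fold change 0.96, adjusted p = 0.145). Both of its shSuv39h1 libraries were above both controls, but it did not pass. In the wider list of Rhox, Xlr and Mage genes on chromosome X 15 were described, of which 2 passed, both lower. Without overlap 7 were lower and 5 higher (27.0% higher and 12.3% lower over all described genes), and the median log2 fold change was −0.04, or 0.02 without shNC replicate 2. Among the 7 lower ones Xlr5a and Xlr3c were described through shNC only. At an unadjusted p under 0.05, 7 were lower and 1 higher. Xlr5a, of a lymphocyte-regulated gene family with near-identical copies, stood at 0.485 and 0.556 FPKM against 1.51 and 1.33 (adjusted p = 0.0885), and reads of such copies may be split by the authors' model. Magea1, Rhox12, Rhox3a and Rhox4d were listed at 0 in all 4 libraries. Over the whole X chromosome 433 genes were described, with a median log2 fold change of 0.04 and 2 that passed, while the 19 autosomes had medians from 0.02 to 0.07.

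Genes of the 2-cell-like state, a transient state of embryonic stem cells that resembles the 2-cell embryo and is marked by Zscan4 expression, tended to be lower, but none passed. Of 15 described list members 11 were lower and 2 higher without overlap (27.0% higher and 12.3% lower over all described genes), 1 of the lower ones (Usp17la) described through shNC only, and the median log2 fold change was −0.51. At an unadjusted p under 0.05, 8 were lower and 2 higher. Zscan4c, a zinc finger gene of the cluster, stood at 3.30 and 3.11 FPKM against 4.96 and 7.69 (adjusted p = 0.133). Arl14epl stood at 7.52 and 8.52 against 12.01 and 15.6 (adjusted p = 0.117), and Zfp951 at 2.40 and 1.83 against 3.48 and 4.67 (adjusted p = 0.174). In each case the control libraries differed from each other, with replicate 2 the higher. The 2 higher members were the metallothioneins Mt1 and Mt2, metal-binding proteins that many cell types express, with Mt2 at 1707 and 1654 FPKM against 1315 and 1135 (adjusted p = 0.375). The list's median moved to −0.29 without shNC replicate 2, to −0.32 without shSuv39h1 replicate 2 and to −0.32 with mean feeder marker level as a covariate. Zscan4 copies are near-identical, so their single values are uncertain.

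The last gene that fell was Tceb2 (current symbol Elob), which encodes elongin B, a subunit shared by a transcription elongation factor and cullin ubiquitin ligases. It stood at 314 and 312 FPKM against 441 and 474, a log2 fold change of −0.55 (adjusted p = 0.0451), at chromosome 17, 23824738 to 23829136. Its exons overlap Srrm2 on the opposite strand. The next falling genes did not pass. Lgals9, a galectin, stood at 7.85 and 9.70 FPKM against 14.5 and 16.1, and Gpa33, a cell-surface glycoprotein of the immunoglobulin superfamily, at 11.7 and 12.1 against 19.6 and 21.2 (adjusted p = 0.0608 for both). Nckap1l, a subunit of an actin-regulating complex in blood cells, stood at 1.71 and 1.69 against 3.36 and 3.37 (adjusted p = 0.0642).

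**Figure D3:**
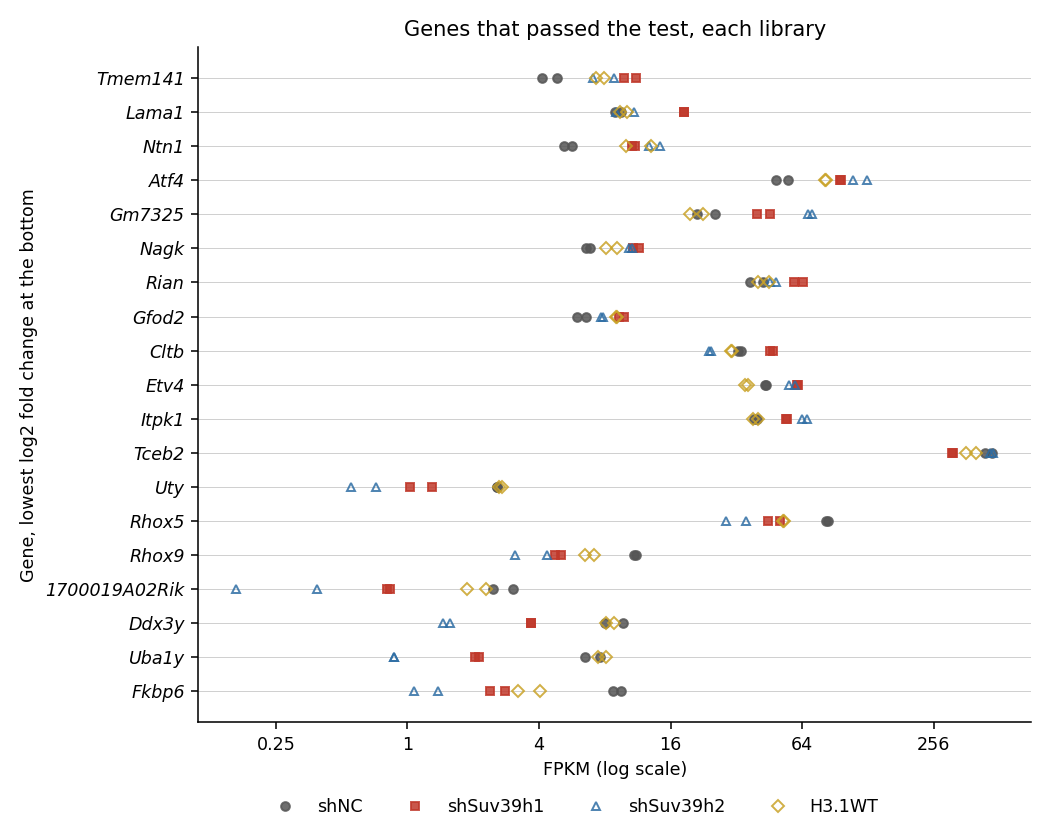
FPKM (log scale) in each library of shNC, shSuv39h1, shSuv39h2 and H3.1WT for the 19 genes that passed, ordered by log2 fold change from the lowest at the bottom. For 7 of the 8 falling genes the shSuv39h2 mean lies below that of shSuv39h1, and for 10 of the 11 rising genes it lies above that of shNC. Low shNC values helped rising genes to pass, so the count of 10 is partly set by that choice.

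Among rising genes Atf4 was the most abundant. It encodes the transcription factor that is translated when eIF2α is phosphorylated and that induces genes of amino acid supply and of the unfolded protein response (chromosome 15, 80255184 to 80257541). Atf4 stood at 96.1 and 95.2 FPKM against 48.6 and 55.1, a 1.84-fold higher mean and a log2 fold change of 0.87 (SE 0.10, adjusted p = 0.0224). The list of ATF4 and unfolded protein response genes had 38 described members, of which Atf4 alone passed. Without overlap 25 were higher and none lower (27.0% higher and 12.3% lower over all described genes), with a median log2 fold change of 0.23 against 0.05 for all described genes. After median-of-ratios scaling the medians were 0.18 and −0.00. At an unadjusted p under 0.05, 15 were higher and none lower. Chac1, a glutathione-degrading enzyme, had the largest difference of the list (log2 fold change 1.37, adjusted p = 0.207), at 11.2 and 13.8 FPKM against 2.53 and 6.70. Slc7a1, a cationic amino acid transporter, stood at 16.4 and 16.1 against 10.5 and 12.7 (adjusted p = 0.129). Members named after their values were seen include Asns, asparagine synthetase, at 138 and 145 against 97.6 and 109 FPKM (adjusted p = 0.440), and Psph, of serine synthesis, at 33.1 and 37.2 against 22.9 and 25.1 (adjusted p = 0.321). Herpud1, of endoplasmic reticulum-associated degradation, stood at 17.1 and 16.4 FPKM against 7.80 and 11.3 (adjusted p = 0.145). Atf4, Chac1, Herpud1 and Slc7a1, the 4 members with the smallest p, averaged 118, 17.5, 18.3 and 18.2 FPKM in shSuv39h2, each above shSuv39h1. In H3.1WT they averaged 81.8, 14.2, 15.6 and 13.2, and all but Slc7a1 lay closer to shSuv39h1 than to shNC. Their choice by p against shNC partly sets these positions. The chaperones of the endoplasmic reticulum differed little. Hspa5 stood at 232 and 224 FPKM against 220.4 in both (adjusted p = 0.939), and Hsp90b1 at 275 and 265 against 288 and 264 (adjusted p = 0.944). Ddit4 overlapped between groups, at 162 and 207 against 242 and 126.

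ATF4 is known to bind composite C/EBP-ATF elements, searched here as TGATGNAA on both strands. The 250 bases before the start of Herpud1, Chac1 and Pck2 are shown, 5′ to 3′ on the gene's strand from RefSeq on GRCm38.p6, because these list members were higher in both shSuv39h1 libraries and hold the element, in capitals and here on the opposite strand.
Herpud1 (chr8:94386179-94386428, plus strand): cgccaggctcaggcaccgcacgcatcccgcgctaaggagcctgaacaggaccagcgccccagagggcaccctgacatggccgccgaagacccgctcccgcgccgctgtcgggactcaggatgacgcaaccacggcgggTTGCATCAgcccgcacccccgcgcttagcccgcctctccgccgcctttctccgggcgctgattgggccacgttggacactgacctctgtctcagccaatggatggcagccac
Chac1 (chr2:119350992-119351241, plus strand): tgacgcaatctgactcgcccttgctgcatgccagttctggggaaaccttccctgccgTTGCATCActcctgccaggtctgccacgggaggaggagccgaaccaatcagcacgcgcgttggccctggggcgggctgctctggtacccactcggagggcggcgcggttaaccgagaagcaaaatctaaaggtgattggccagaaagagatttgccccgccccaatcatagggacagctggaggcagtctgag
Pck2 (chr14:55540016-55540265, plus strand): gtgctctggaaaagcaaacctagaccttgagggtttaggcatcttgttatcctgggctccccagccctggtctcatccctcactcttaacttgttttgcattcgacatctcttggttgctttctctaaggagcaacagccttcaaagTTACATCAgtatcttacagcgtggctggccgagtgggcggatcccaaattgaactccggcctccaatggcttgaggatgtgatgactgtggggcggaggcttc
Pck2, mitochondrial phosphoenolpyruvate carboxykinase and named after its values were seen, stood at 11.8 and 11.2 FPKM against 7.56 and 8.01 (adjusted p = 0.211). The element was in 6 of 33 list members with a window (18.2%) and in 1.86% of all windows. Of the 6 holders 5 were higher without overlap, with a median log2 fold change of 0.48, and of the 27 others 16 were, with a median of 0.19. Over all described genes 27.0% were higher without overlap.

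The other rising genes have varied known functions. Tmem141, a small transmembrane protein gene (chromosome 2, 25620067 to 25622005), had the highest fold, at 9.83 and 11.1 FPKM against 4.14 and 4.85 (2.33-fold, log2 fold change 1.06, adjusted p = 0.0238). Lama1, the laminin α1 chain of early basement membranes (chromosome 17, 67697259 to 67822647), stood at 18.4 in both libraries against 9.51 and 8.91 (log2 fold change 0.92, adjusted p = 0.0224). Ntn1, the secreted guidance protein netrin-1 (chromosome 11, 68209364 to 68400823), stood at 10.95 and 10.6 against 5.19 and 5.68 (0.87, adjusted p = 0.0353). All 3 were about 2-fold higher with no overlap. Gm7325, named after its values were seen and listed by RefSeq as the myoblast fusion gene Mymx (chromosome 17, 45600971 to 45602102), stood at 39.6 and 45.7 FPKM against 21.1 and 25.5 (0.85, adjusted p = 0.0451). Nagk, the N-acetylglucosamine kinase, rose from a mean of 6.70 to 11.1 FPKM (0.66, adjusted p = 0.0389), and Gfod2, an oxidoreductase-domain gene, from 6.27 to 9.57 (0.54, adjusted p = 0.0470). Etv4, an ETS transcription factor downstream of FGF and ERK signalling, stood at 61.2 and 60.9 against 44.0 and 43.4 (0.47, adjusted p = 0.0451). It was the only one of 27 described immediate early and ERK-responsive genes that passed, and Fos stood at 25.5 and 35.2 against 41.2 and 46.2 FPKM (adjusted p = 0.272). Cltb, clathrin light chain B, rose from 33.0 to 46.3 FPKM (0.48, adjusted p = 0.0451), and Itpk1, an inositol phosphate kinase whose exons overlap Gm28373 on the same strand, from 39.3 to 54.4 (0.46, adjusted p = 0.0451).

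Rian was the single imprinted gene that passed. It is a maternally expressed noncoding RNA of the Dlk1-Dio3 region (chromosome 12, 109603940 to 109661716), and stood at 64.5 and 58.8 FPKM against 42.6 and 36.9 (log2 fold change 0.62, adjusted p = 0.0470). Its exons overlap several other annotated genes on the same strand. Its neighbours Meg3 and Mirg, noncoding RNAs of the same region, were higher too but did not pass. Meg3 stood at 103 and 97.5 against 82.5 and 64.3 (adjusted p = 0.248), and Mirg at 9.40 and 8.19 against 5.05 and 5.60 (adjusted p = 0.208). The groups overlapped for none of the 3. Of 29 described imprinted genes 11 were higher and 4 lower without overlap (27.0% higher and 12.3% lower over all described genes), with a median log2 fold change of 0.07. Unadjusted p was under 0.05 for 6 higher and 2 lower members. Phlda2, a growth-restricting placental gene, stood at 83.6 and 80.9 FPKM against 62.5 and 59.9 (adjusted p = 0.207). H19, a noncoding RNA named after its values were seen, stood at 38.7 and 36.4 against 60.6 and 53.3 (adjusted p = 0.272).

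Interferon response genes were lower as a group, though none passed in limma. Such genes are induced by interferon signalling and encode antiviral and antigen-presentation proteins. Of 33 described members 24 were lower and none higher without overlap (12.3% and 27.0% over all described genes), and 16 were lower and none higher at an unadjusted p under 0.05. Of the 33, Gbp1, Gbp3, Ifit3 and Oasl2 were described through shNC only, and of the other 29 members 20 were lower and none higher without overlap, with a median log2 fold change of −0.39. Over all 33 the median was −0.45. Summed over the 37 list genes with values, described or not, the level was 792 and 775 FPKM against 1138 and 1128. In shSuv39h2 this sum was 887 and 1020, also below shNC. Ifitm3, a membrane protein that blocks virus entry, stood at 103 and 96.4 FPKM against 175 and 219 (log2 fold change −0.97, adjusted p = 0.135). Oas1a, an oligoadenylate synthetase, stood at 4.71 and 5.02 against 9.62 and 7.83 (adjusted p = 0.172). Psmb8, an immunoproteasome subunit, stood at 2.06 and 1.88 against 3.76 and 3.20 (adjusted p = 0.145), and Ifi35 at 10.2 and 9.29 against 13.7 and 14.6 (adjusted p = 0.129). B2m, the light chain of class I histocompatibility molecules, stood at 120 and 92.1 against 164 and 182 (adjusted p = 0.437), and Bst2, which tethers budding viruses, at 161 and 165 against 261 and 196 (adjusted p = 0.248). For each of these 6 the groups did not overlap. In the same order their H3.1WT means were 156, 5.13, 7.76, 12.1, 129 and 152 FPKM. Those of Oas1a, B2m and Bst2 lay closer to shSuv39h1 than to shNC. Those of Ifitm3 and Ifi35 lay closer to shNC, and that of Psmb8 above both groups. Usp18, named after its values were seen, had the largest difference of the list, at 1.82 and 1.92 FPKM against 6.05 and 5.05 (log2 fold change −1.19, adjusted p = 0.364). The largest list differences had wide errors (SE 0.422 for Usp18).

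Feeder markers were lower in the same comparison. All 36 had a negative log2 fold change, 16 were lower without overlap and none higher (12.3% and 27.0% over all described genes), 4 were lower at an unadjusted p under 0.05 and none passed, with a median of −0.44. Vim, an intermediate filament of fibroblasts, stood at 397 and 274 FPKM against 403 and 497, and Fn1, fibronectin, at 333 and 236 against 317 and 364. The feeder sum of shSuv39h1 replicate 1 (1868 FPKM) lay between those of the 2 controls. With mean feeder marker level as a covariate the interferon median was −0.39, and leaving out any of the 4 libraries in turn gave −0.43 to −0.47. Whether feeder RNA had a part in the interferon difference was not tested. The feeder median itself ranged from −0.69 to −0.17 when libraries were left out. With this covariate 24 genes passed over all genes, of which 15 were among the 19.

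The 250 bases before the start of Oas1a, Bst2 and Gbp1, interferon-inducible genes that were lower in both shSuv39h1 libraries, are shown from RefSeq on GRCm38.p6, 5′ to 3′ on the gene's strand. Capitals mark the core of the interferon-stimulated response element, searched on both strands as GAAA, any 2 bases and again GAAA, where overlapping matches run together.
Oas1a (chr5:120907526-120907775, minus strand): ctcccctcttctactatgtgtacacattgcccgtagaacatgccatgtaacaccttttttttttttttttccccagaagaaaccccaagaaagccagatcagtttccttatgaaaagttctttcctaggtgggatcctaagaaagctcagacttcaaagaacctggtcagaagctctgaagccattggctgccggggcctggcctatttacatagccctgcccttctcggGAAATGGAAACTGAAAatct
Bst2 (chr8:71537473-71537722, minus strand): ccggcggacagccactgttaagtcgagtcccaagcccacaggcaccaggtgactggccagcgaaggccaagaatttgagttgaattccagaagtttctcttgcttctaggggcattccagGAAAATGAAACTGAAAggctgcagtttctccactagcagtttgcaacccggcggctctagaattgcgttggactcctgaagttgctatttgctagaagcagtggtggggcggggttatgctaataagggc
Gbp1 (chr3:142594597-142594846, plus strand): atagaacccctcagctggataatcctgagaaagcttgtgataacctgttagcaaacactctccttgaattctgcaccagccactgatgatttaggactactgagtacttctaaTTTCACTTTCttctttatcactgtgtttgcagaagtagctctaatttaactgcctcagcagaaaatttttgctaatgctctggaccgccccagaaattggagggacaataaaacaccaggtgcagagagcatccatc
Gbp1, a guanylate-binding protein named after its values were seen, stood at 0.659 and 0.741 FPKM against 1.57 and 1.35 (adjusted p = 0.340) and was described through shNC only. The core was in 11 of 29 list members with a window (37.9%) and in 2.39% of all windows. Of the 11 holders 9 were lower without overlap, and of the 18 others 11 were (12.3% over all described genes). Gbp1, Gbp3 and Ifit3, which hold it, were described through shNC only, and of the other 8 holders 6 were lower, with a median log2 fold change of −0.62.

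**Figure D4:**
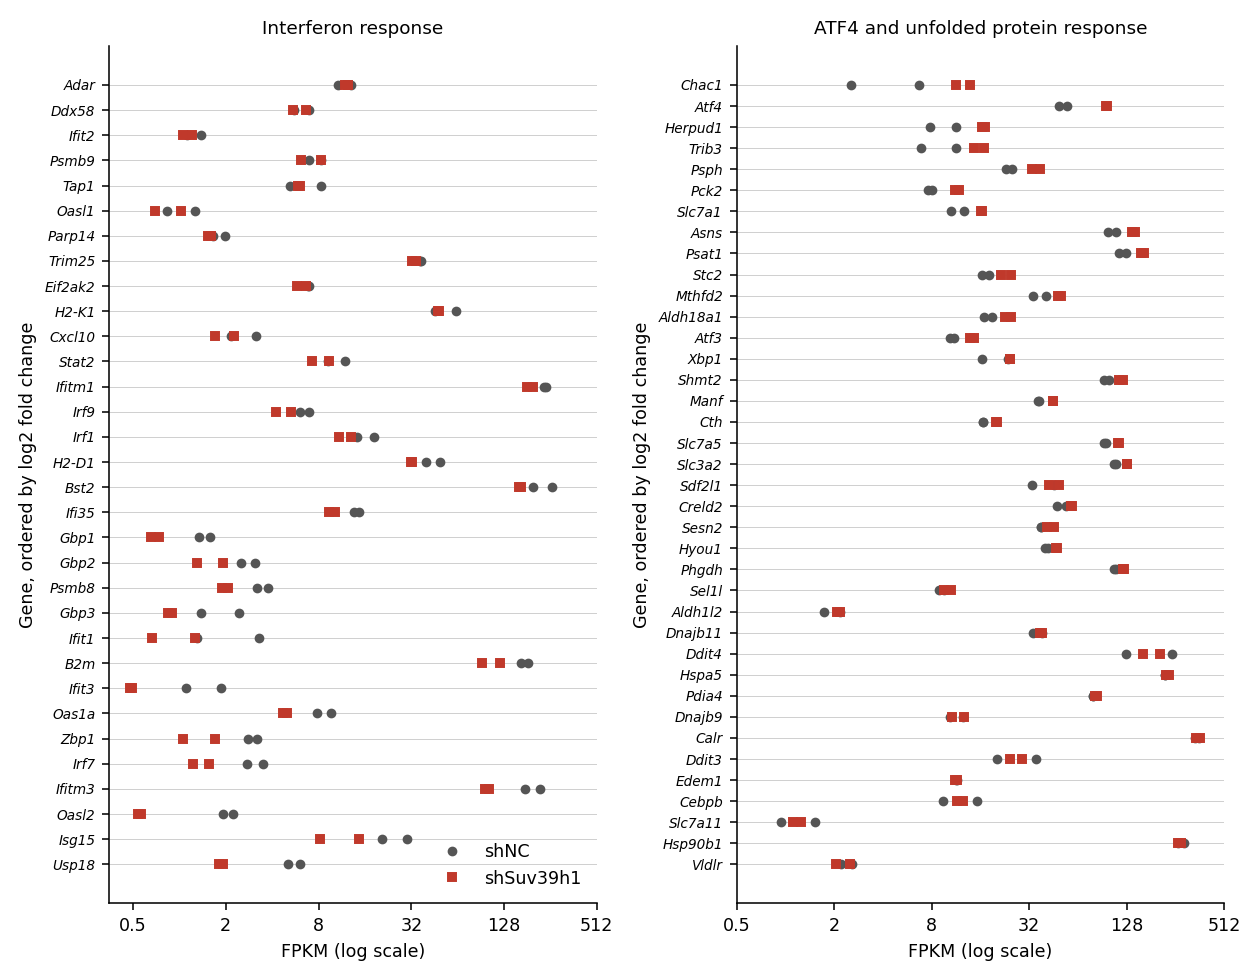
FPKM (log scale) in each shNC and shSuv39h1 library for described members of the interferon response list (left, 32 of 33 genes drawn) and of the ATF4 and unfolded protein response list (right, 38 genes), ordered by log2 fold change. The shSuv39h1 libraries lie left of both controls for 23 of the interferon genes drawn and right of both for 25 genes of the other list.

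Genes of the H3K9 methylation system other than the target differed little. Of 41 described writers, readers and erasers none passed in limma, and at an unadjusted p under 0.05, 3 were higher and 1, Suv39h1 itself, lower. Without overlap 12 were higher and 5 lower, shares near those of all described genes (27.0% and 12.3%), with a median log2 fold change of 0.06. The remaining members ranged up to 0.25, at Jmjd1c, a JmjC-domain demethylase family member that stood at 22.2 and 20.1 FPKM against 18.1 and 17.2 (adjusted p = 0.311). Trim28, the corepressor that recruits Setdb1, stood at 499.7 and 530 against 413 and 549 (adjusted p = 0.829), and Cbx1, an HP1 protein, at 101 and 118 against 101 and 114 (adjusted p = 0.977). Uhrf1, which links H3K9me3 to DNA methylation upkeep, stood at 99.96 and 107 against 93.1 and 94.0 (adjusted p = 0.663). Suv420h2, the H4K20 methyltransferase that acts after H3K9me3, stood at 34.2 and 36.7 against 33.4 and 26.9 (adjusted p = 0.470). In the list of DNA methylation genes Dnmt3l, a cofactor of de novo methyltransferases that is also on the germline list, stood at 206 and 195 FPKM against 289 and 242 (adjusted p = 0.365). Of the 19 described members of that list 3 were higher and 5 lower without overlap (27.0% and 12.3% over all described genes). None passed, with 2 in each direction at an unadjusted p under 0.05. In the Polycomb list of 31 and the H3K36 methylation list of 20 none passed either, the medians were 0.00 and 0.02, and these changed sign when single libraries were left out (−0.05 for Polycomb without shSuv39h1 replicate 2, −0.04 for H3K36 methylation without shNC replicate 1). At an unadjusted p under 0.05 1 and 0 were higher and 2 and 1 lower. Phf19, a member of both, stood at 3.22 and 2.98 FPKM against 4.04 and 5.27 (adjusted p = 0.257).

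**Figure D5:**
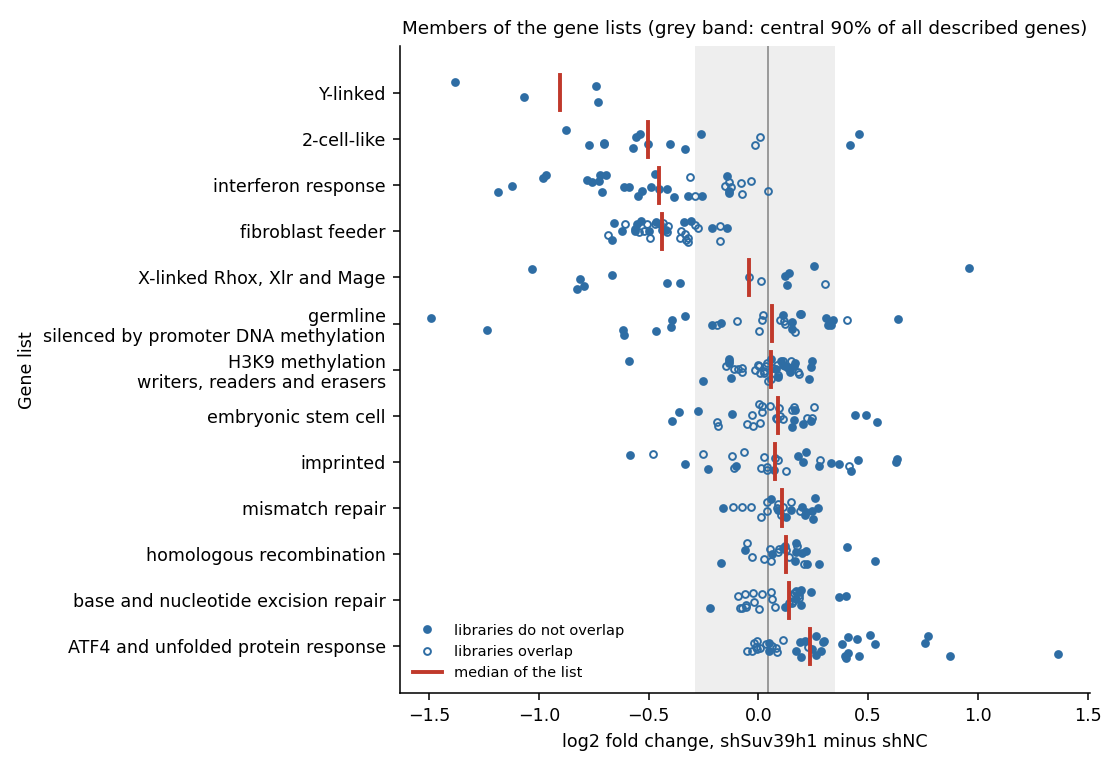
log2 fold change (shSuv39h1 minus shNC) of the described members of 13 gene lists, filled where the libraries of the groups do not overlap, with the list median in red. The grey line and band show the median and the central 90% of all described genes. The Y-linked, 2-cell-like, interferon and feeder medians lie below the band's left edge, and all other medians lie within the band.

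Pluripotency and lineage markers showed no member that passed except Lama1, which rose, and Rhox5, which fell, both on the list of primitive and visceral endoderm, where 3 of 16 described genes were higher (1 of them, Cubn, described through shSuv39h1 only) and 5 lower without overlap. Of the 32 embryonic stem cell markers 8 were higher and 4 lower without overlap, about the shares over all described genes (27.0% and 12.3%), 4 were higher and 3 lower at an unadjusted p under 0.05, and the median was 0.09. Klf4, a naive pluripotency factor, stood at 78.0 and 83.3 FPKM against 61.6 and 56.9 (adjusted p = 0.145), and Tbx3 at 33.9 and 28.1 against 21.9 and 19.9 (adjusted p = 0.259). Without shNC replicate 1 the list's median was −0.03, so its sign rested on that library. In the list for trophectoderm and simple epithelium, 17 described genes, 6 were higher and 1 lower without overlap (27.0% higher and 12.3% lower over all described genes), and 4 were higher and none lower at an unadjusted p under 0.05. Tead4, a transcription factor of trophectoderm specification, stood at 7.68 and 8.29 against 5.34 and 5.46 (adjusted p = 0.0885), and the keratin Krt8 at 19.6 and 21.4 against 14.1 and 12.8 (adjusted p = 0.182). Of 17 described genes of primitive streak and mesoderm 5 were higher and 3 lower without overlap (27.0% and 12.3% over all described genes). At an unadjusted p under 0.05, 3 were higher and none lower (7.86% and 2.75% over all described genes). Cdx1, a caudal homeobox gene and Wnt target, stood at 4.57 and 5.62 against 2.27 and 2.12 (log2 fold change 0.93, adjusted p = 0.126). Lefty1, a Nodal inhibitor, was on the other side at 55.2 and 60.8 against 69.8 and 106 (adjusted p = 0.505). Id1, a BMP target, stood at 68.0 and 66.5 against 36.6 and 49.1 (adjusted p = 0.209). Crabp1, a retinoic acid binding protein, stood at 96.97 and 102 against 69.8 and 67.8 (adjusted p = 0.0608). Of 14 described primed or formative markers 2 were higher and 3 lower without overlap (27.0% and 12.3% over all described genes). In each direction 1 was at an unadjusted p under 0.05. Pou3f1 stood at 3.25 and 3.51 against 5.89 and 4.79 (adjusted p = 0.146). Cer1 was listed at 0 in all 4 libraries. Of 16 described neural genes 5 were higher and 2 lower without overlap (27.0% and 12.3% over all described genes), with 1 in each direction at an unadjusted p under 0.05.

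DNA repair lists had medians slightly above that of all genes, and none of their members passed. The median log2 fold change was 0.11 over 24 mismatch repair genes, 0.13 over 25 homologous recombination genes and 0.14 over 31 base and nucleotide excision repair genes. Without overlap 11, 12 and 8 of them were higher and 1, 2 and 1 lower, against 27.0% higher and 12.3% lower over all described genes. At an unadjusted p under 0.05, 2, 3 and 1 were higher and none lower. Mpg, a DNA glycosylase for alkylated bases, stood at 18.6 and 20.7 FPKM against 14.0 and 15.3 (adjusted p = 0.185), and Brca2, a recombination mediator, at 10.9 and 11.1 against 7.52 and 8.60 (adjusted p = 0.235). Pms2 stood at 8.90 and 9.16 against 7.04 and 7.85 (adjusted p = 0.334), while Msh6 stood at 123 and 126 against 130 and 125 (adjusted p = 0.932). The excision repair median was 0.02 without shNC replicate 1 and 0.05 without shSuv39h1 replicate 2, the mismatch repair median was 0.20 without shNC replicate 2, and the homologous recombination median was 0.05 with the feeder covariate. Of 39 nuclear genes of oxidative phosphorylation 17 were higher and none lower without overlap (27.0% and 12.3% over all described genes). Their median was 0.07, and 3 were higher at an unadjusted p under 0.05. Uqcrq, a subunit of complex III, stood at 453 and 449.98 FPKM against 331 and 335 (adjusted p = 0.0885), and among the alternatives run it passed with quantile normalization only. After median-of-ratios scaling the median was 0.01, while that of all described genes moved from 0.05 to −0.00, so both shifted alike. With the feeder covariate it was 0.01 against 0.05 for all described genes. Of 25 described p53 targets 7 were higher and 1 lower without overlap (27.0% and 12.3% over all described genes), and 1 was higher at an unadjusted p under 0.05. Btg2 stood at 29.3 and 31.4 against 23.6 and 21.4 (adjusted p = 0.172) and Trp53 itself at 154 and 159 against 115 and 176 (adjusted p = 0.864). Of 28 replication-dependent histone genes 11 were higher and 4 lower without overlap (27.0% and 12.3% over all described genes). At an unadjusted p under 0.05, 4 were higher and 2 lower.

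The Suv39h2 hairpin gives levels from the same series, and the 2 knockdowns share the shNC control. Whether their libraries were made with the same kit is not given. Directly compared, 837 of the described genes differed between shSuv39h1 and shSuv39h2 (6.62%), among them 11 of the 19 genes. Leaving out single libraries of the pair lowered the count over all 13109 tested genes from 860 to between 76 and 221. Fkbp6 averaged 9.09 FPKM in shNC, 2.59 in shSuv39h1 and 1.22 in shSuv39h2, and the difference of 0.69 between the knockdowns passed (adjusted p = 0.0147). Uba1y averaged 7.04, 2.08 and 0.867 in the same order (0.72, adjusted p = 0.00555), and Ddx3y 8.84, 3.67 and 1.51 (0.89, adjusted p = 0.00259). Rhox5 averaged 83.3, 47.7 and 32.1 (0.56, adjusted p = 0.0170). Atf4 averaged 51.9, 95.6 and 118 FPKM, and its difference of −0.30 between the knockdowns did not pass (adjusted p = 0.121). Lama1 averaged 9.21, 18.4 and 9.92, so shSuv39h2 lay near the control, and the knockdowns differed (0.83, adjusted p = 0.00434). Tceb2 averaged 457, 313 and 472, so here too shSuv39h2 lay near the control (−0.59, adjusted p = 0.00434). Cltb averaged 33.0, 46.3 and 24.3, and thus lay on opposite sides of the control. In H3.1WT, the line with a wild-type histone transgene, all 8 falling genes averaged above shSuv39h1 and 10 of the 11 rising genes below it. The 19 genes were picked by their difference between shSuv39h1 and shNC, so these counts are partly set by that choice. H3.1WT lay between shNC and shSuv39h1 for several of the 19. Atf4 stood at 82.2 and 81.4 FPKM there, Rhox5 at 52.4 and 52.7 and Fkbp6 at 4.06 and 3.19, each closer to shSuv39h1 than to shNC.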

How the data were processed

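The values are FPKM per gene symbol as deposited by the authors, 1 file per library. The unit is inferred. The values move in whole steps for 87.9% of 7226 values of 1053 low genes (tolerance 0.05, 10% by chance at a fixed scale). Each library's scale was chosen to make this share as high as possible, so 10% is not its chance level. Whole steps fit any count scaled by length and library, so they do not single out FPKM. TopHat2 2.0.13, Cuffdiff 2.2.1 and the mm10 build are named in the submitters' processing notes, without roles. The gene annotation, strand setting and scaling are not stated in the labels used. Per the labels' protocols, Trizol RNA was captured for mRNA, and library kits of 2 makers, NEBNext Ultra and TruSeq v2, are named. Which library used which kit is not given. Cuffdiff can split reads between copies by model.

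FPKM values were used as deposited. limma 3.58.1 (R 4.3.3) was fitted to log2(FPKM + 1) with an intensity trend over all 12 libraries, with a mean for each of 6 groups, 6 residual and 3.66 prior degrees of freedom and no replicate block. Sharing the spread lets all groups inform each gene, but the groups vary unequally. Genes at 1 FPKM or more in at least 2 of the 12 libraries were tested (13109), and p-values, two-sided, were adjusted over these by the Benjamini-Hochberg method, with a threshold of 0.05. Fold changes on this scale understate those of low genes. Lists were described by counts and medians, with no test. The steps were also run on simulated data in which each gene had the same spread in all groups. That run does not cover groups that vary unequally, as these do. Alternatives covered the pseudocount, filters, scaling, array weights, a block, fewer groups, a feeder covariate and each library left out. The covariate was the mean log2 level of the feeder markers.

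The members, the 33 lists and the motifs were chosen with earlier results of these data known. The text names Suv39h1 and Suv39h2, up to 15 genes in each direction with the largest changes that passed with no overlap and 3 FPKM in the higher group (clone-named genes skipped), the 10 smallest p where fewer passed, up to 8 most abundant genes that passed, and, per list, up to 4 members with the smallest p and 4 with the highest level. Positions are from GENCODE M21 (GRCm38), matched by symbol or RefSeq synonym for 12539 of 12640 genes. Some items are not reported here by name. Promoter windows are from RefSeq and matched 9890.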

Additional observations from a re-analysis of the deposited data

Results flagged for a closer look

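Cltb differed between the knockdowns in direction. Both shSuv39h1 libraries were above and both shSuv39h2 libraries below the shNC libraries, at 45.6 and 47.0 FPKM, 23.99 and 24.6 FPKM, and a control mean of 33.0. The difference of shSuv39h1 minus shSuv39h2 was 0.90 on the log2 scale and passed in limma (adjusted p = 0.000514). It was picked out among the 19 genes after their values were seen. Because groups had 2 libraries each, no search for libraries far from the others of their group was made.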

How the results depend on the processing

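Over all tested genes 19 passed. The count was 11 with a pseudocount of 0.1 (11 of them among the 19), 3 in the fit to the knockdown arm only (2 among the 19) and 1 in the fit to the groups compared only (0). It was 13 with no filter (10), 24 with a filter of 5 FPKM (17), 19 with quantile normalization (14), 14 with median-of-ratios scaling (13), 19 with array weights (15) and 24 with the feeder covariate (15). Leaving out single libraries gave 0 to 18. Fkbp6 and Uba1y passed in 15 of 17 alternatives, Ddx3y in 12, Atf4 and Tmem141 in 10, and the other 14 genes in 3 to 9. Suv39h1 kept its direction in all of them and passed in none.

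With the replicate block 3 genes passed, all falling and all among the 19. The replicate differences correlated at −0.242 between shNC and shSuv39h1, 0.383 between shNC and shSuv39h2 and 0.143 between the knockdowns. With a single replicate difference per group, these values cannot tell whether the replicate numbers pair the libraries. Crossing the numbers, chosen after seeing the data, gave 2. Without both H3.1K9M libraries, whose replicates differed most (SD 0.410) and which was also chosen after seeing the data, 60 passed (37 rising, 23 falling), including all 19.

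Against shSuv39h2, 860 genes passed, with 2103 under array weights, 348 in the knockdown arm only, 235 with crossed numbers, 1443 without H3.1K9M and 76 to 221 when single libraries were left out. The feeder list's median turned to 0.048 with the feeder covariate, which is made from that list. Causes of these shifts were not tested. Depth limits genes near 1 FPKM, and 2 libraries a group limit the rest.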

Other observations

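Further gene lists held no gene that passed. Over all described genes 27.0% were higher and 12.3% lower without overlap, and 7.86% and 2.75% at an unadjusted p under 0.05. Of 20 described targets of Nodal, BMP and TGF-beta signalling 8 were lower and 2 higher without overlap, with 2 lower and 1 higher at an unadjusted p under 0.05. Their median log2 fold change of −0.09 turned to 0.05 with the feeder covariate and to 0.01 without shNC replicate 2, and Ctgf is also a feeder marker. Of 21 described Wnt pathway genes 6 were higher and 2 lower, with 3 higher and 2 lower at that unadjusted p. Of 25 genes of cholesterol synthesis 7 were higher and 2 lower, near the shares over all described genes (27.0% and 12.3%). Of 39 genes of glycolysis and hypoxia 3 were higher and 5 lower, and their median of −0.07 was 0.06 without shNC replicate 1 and −0.18 without shNC replicate 2. Of 37 cell cycle genes 2 were higher and 2 lower, and of 55 ribosomal protein genes 8 were higher and 2 lower. Rps27 stood at 4.32 and 5.36 FPKM in the shSuv39h1 libraries against 6.73 and 38.2 in the shNC libraries, so its difference rested on shNC replicate 2.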
